A study of Rattus norvegicus with 12 samples.

Results

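Cell division genes were described on 12 one-colour microarrays of primary rat hepatocytes exposed to 3 related diphenyl ethers. The set was a fixed list of 53 genes of mitosis and chromosome segregation, chosen with earlier results of these data known. Genes were found through the RefSeq transcript named for each array probe, and each gene was read from its brightest probe among those well above background on every array of some group. A matched probe was found for 44 of the 53 genes, 42 were measured, and 38 were well above background on all 12 arrays, out of 20359 genes or transcripts tested. No probe was matched for Melk, Cdc25c, Cenpe, Spc24, Kif4a, Anln, Top2a, Ncapg and Ncaph. Kif2c and Hmmr had probes too dim to be kept.

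Cryopreserved hepatocytes of male Sprague Dawley rats were used. After 24 h of culture they were exposed for 24 h to DMSO, the vehicle, or to triclosan, diclosan or CCPB (1-chloro-3-(4-chlorophenoxy) benzene), each at 30 µM, with 3 arrays a group. Triclosan is an antibacterial phenol, diclosan lacks 1 of its chlorine atoms, and CCPB has no hydroxyl group and holds 1 of its chlorine atoms meta to the ether oxygen. The labels call the 3 arrays of a group independent experiments and do not tell whether they used separate rats or cell lots, so p-values measure only the spread between these samples. The labels give no age or genotype.

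In a dividing cell, Cdk1 bound to A-type and B-type cyclins starts mitosis, kinetochores tie the chromosomes to spindle microtubules, and the spindle checkpoint delays anaphase until every chromosome is attached. The anaphase-promoting complex then frees separase to cut the links between sister chromatids, and a contractile ring at the spindle midzone divides the cell. Many of these genes are transcribed late in the cell cycle through promoter elements named CHR (cell cycle genes homology region) and CCAAT box, which the MuvB-based complexes and the factor NF-Y bind. Most hepatocytes of the adult liver are not dividing, and they can enter the cycle again after injury or in culture.

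Promoters are shown for the 6 genes with the smallest p between CCPB and DMSO among those that passed the test in a comparison with the slide as a block and had a RefSeq promoter entry. Each line holds the 250 bases before the start of the gene, 5′ to 3′ on the gene's strand, from RefSeq on build GRCr8. Capitals mark TTTGAA or TTCGAA (CHR) and CCAAT on either strand, so that CCAAT on the opposite strand reads ATTGG. In Mki67 the second TTTGAA shares its last base with an ATTGG. The windows lie at chr1:199952594-199952843 (minus strand) for Mki67, chr8:93634389-93634638 (plus) for Ttk, chr3:135504922-135505171 (minus) for Bub1, chr3:74396719-74396968 (minus) for Spc25, chr20:19265043-19265292 (plus) for Cdk1 and chr13:84255599-84255848 (minus) for Nuf2.
Mki67: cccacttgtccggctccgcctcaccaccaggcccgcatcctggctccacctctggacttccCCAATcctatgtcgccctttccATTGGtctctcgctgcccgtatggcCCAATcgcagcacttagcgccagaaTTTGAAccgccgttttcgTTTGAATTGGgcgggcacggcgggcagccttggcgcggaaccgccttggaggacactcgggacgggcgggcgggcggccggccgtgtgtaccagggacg
Ttk: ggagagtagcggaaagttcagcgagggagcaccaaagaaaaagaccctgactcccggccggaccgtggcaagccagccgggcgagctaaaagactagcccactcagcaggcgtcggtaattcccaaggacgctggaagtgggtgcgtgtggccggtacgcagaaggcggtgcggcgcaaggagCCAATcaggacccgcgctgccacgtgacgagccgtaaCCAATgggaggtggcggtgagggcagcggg
Bub1: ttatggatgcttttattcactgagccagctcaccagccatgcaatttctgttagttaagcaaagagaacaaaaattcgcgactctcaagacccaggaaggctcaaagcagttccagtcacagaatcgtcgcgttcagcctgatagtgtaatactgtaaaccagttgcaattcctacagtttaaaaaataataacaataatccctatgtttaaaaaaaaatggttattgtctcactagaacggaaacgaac
Spc25: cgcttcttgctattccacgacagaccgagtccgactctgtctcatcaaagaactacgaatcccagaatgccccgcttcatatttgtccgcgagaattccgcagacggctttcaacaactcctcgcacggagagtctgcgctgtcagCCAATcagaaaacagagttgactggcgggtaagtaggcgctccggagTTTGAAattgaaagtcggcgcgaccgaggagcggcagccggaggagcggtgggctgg
Cdk1: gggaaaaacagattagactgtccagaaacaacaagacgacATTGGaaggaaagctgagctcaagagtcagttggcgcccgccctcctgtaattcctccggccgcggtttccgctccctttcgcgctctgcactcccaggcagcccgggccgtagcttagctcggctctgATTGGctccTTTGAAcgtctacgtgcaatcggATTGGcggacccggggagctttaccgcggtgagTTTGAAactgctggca
Nuf2: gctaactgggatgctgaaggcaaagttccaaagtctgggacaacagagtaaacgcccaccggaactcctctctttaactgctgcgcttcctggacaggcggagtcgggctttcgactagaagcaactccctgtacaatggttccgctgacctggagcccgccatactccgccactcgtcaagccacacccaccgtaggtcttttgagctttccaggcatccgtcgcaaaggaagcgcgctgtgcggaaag

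The Cdk1 promoter held CHR matches that began at -72 and -16 and CCAAT matches at -210, -81 and -49, counted in bases from the start. Spc25 held a CHR at -57 and a CCAAT at -104. Ttk held CCAAT at -67 and -30, and its CHR began at base 5 of the gene. No match lay before the start in Bub1 or Nuf2, and Nuf2 held a CHR that began at base 30 of the gene. Cenpt had no entry.

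Over the window from 250 bases before to 50 after the start, 45 of the 53 genes had an entry, and 33 of them (73.3%) held a CHR, against 19.7% of 33469 rat promoters of that length. CCAAT stood in 33 (73.3%) against 37.5%, at 2 or more places in 24 (53.3%) against 11.2%, and both motifs in 27 (60%) against 7.95%. Among the measured genes with an entry, a CHR was found in 22 of the 28 that were lower with CCPB than with DMSO by the test below and in 5 of the 6 that did not pass it. The motif shares thus describe the list as a whole, and these letters did not separate the genes that passed from the few that did not.

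**Figure D1:**
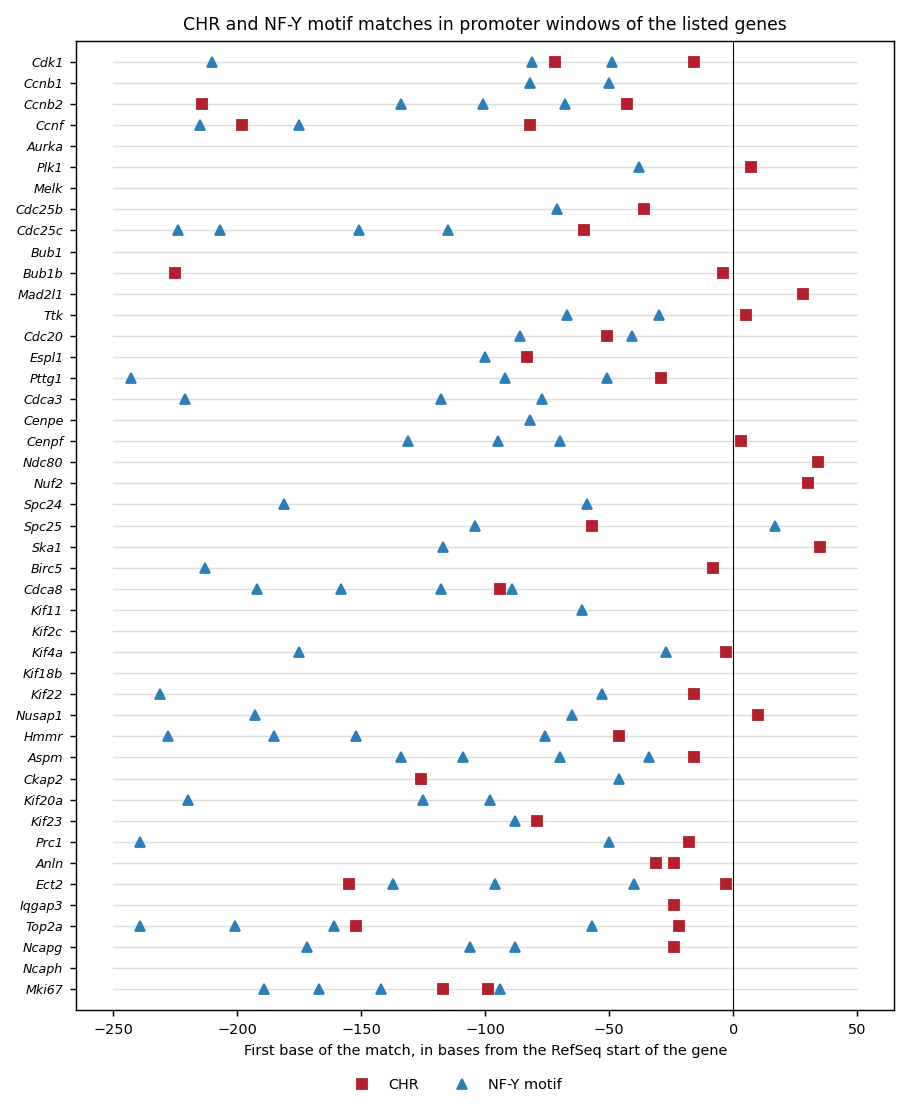
Position of each CHR match (red squares) and each NF-Y motif match, the CCAAT box (blue triangles), in bases from the RefSeq start of the gene, for the 45 listed genes with a promoter entry. CHR matches stand in 33 genes and CCAAT boxes in 33, and 27 genes hold both.

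Levels are given on the log2 scale relative to the 75th percentile of each array, so that 0 is that percentile and a difference of 1 is 2-fold. Between 51.6% and 55.5% of the probes were well above background on an array, and no spot was saturated. DMSO, triclosan and diclosan replicates 1 and 2 were hybridised on slide 1, whereas CCPB was on slide 2 together with diclosan replicate 3. CCPB therefore shared no slide with DMSO or triclosan. Differences are given from a limma fit by group over all genes and again with the slide as a block. The block is estimated from diclosan alone, the one treatment present on both slides. A gene passed at a Benjamini-Hochberg adjusted p under 0.05 over all 20359 genes, and the 3 arrays a group limit the precision.

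Levels of the mitotic genes were lower with CCPB than with DMSO across all of their roles, from the cyclins to cytokinesis. Of the 42 measured genes, 35 fell and none rose, where 14.2% of all genes tested fell and 28.3% changed in either direction. The median difference was -0.69, a 1.62-fold lower level, against 0.0039 over all genes. Since the list was chosen with earlier results of these data known, its contrast with all genes is a description and not an independent test. The 35 include Pbk and Bub1b, which were not well above background on any CCPB array. With the normexp background correction in place of the scanner's own, 35 fell and the median was -0.42. That fit called 6233 of 20359 genes in either direction. With the slide as a block 20 of the 42 fell and none rose, where 1.79% of all genes fell and 3.42% changed, and the median was -0.73. Over the 38 genes well above background on all 12 arrays, 32 fell without the block and 19 with it. The shares over all genes tested, which include genes dim on some arrays, were the 14.2% and 1.79% above. A fit without a block, limited to probes this bright, also gave 32 of 38, where 5785 of 18943 genes changed in either direction. In 24 of the 42 the fall passed the test and was 1.5-fold or more, which held for 2.04% of all genes. In cultured cells such as these, fewer dividing cells and less RNA per dividing cell cannot be told apart.

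The median distance of the 42 genes from their DMSO mean was -0.63, -0.76 and -0.62 on the CCPB arrays 1, 2 and 3. On the triclosan arrays it was -0.14, -0.04 and -0.05, and on the diclosan arrays -0.0044, -0.15 and -0.08. CCPB stood apart on each of its arrays, and its replicate 2 was the lowest of the 3 in 29 of the 42 genes, where 35% of all genes had it lowest. All 3 CCPB arrays lay below all 3 DMSO arrays for 38 of the 42 (24.2% of all genes did so) and below the other 9 arrays for 34 (10.8%).

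The diclosan array on slide 2 gives the only view of the mitotic genes in another treatment on the slide of CCPB. Its value differed from the mean of diclosan replicates 1 and 2 by a median of 0.03 over the 42 genes and -0.0072 over all genes. It lay below all 8 arrays of slide 1 for 6 of the 42 genes, where 19.9% of all genes did so. It lay below diclosan replicates 1 and 2 for 9 of the 42 genes, where 41% of all genes did so. It lay above both for 16 of the 42 genes, where 38.3% of all genes did so. All 3 CCPB arrays lay below it for 39 of the 42, where 33.7% of all genes did so, and the exceptions were Aurkb, Cdca8 and Kif11. Without regard to sign, the median difference from replicates 1 and 2 was 0.09 over the 42 genes and 0.11 over all genes. Single genes differed more, Cenpf upward and Aurkb downward. Most mitotic genes on this 1 array lay above those of CCPB, and the part of the slide was not tested by it.

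**Figure D2:**
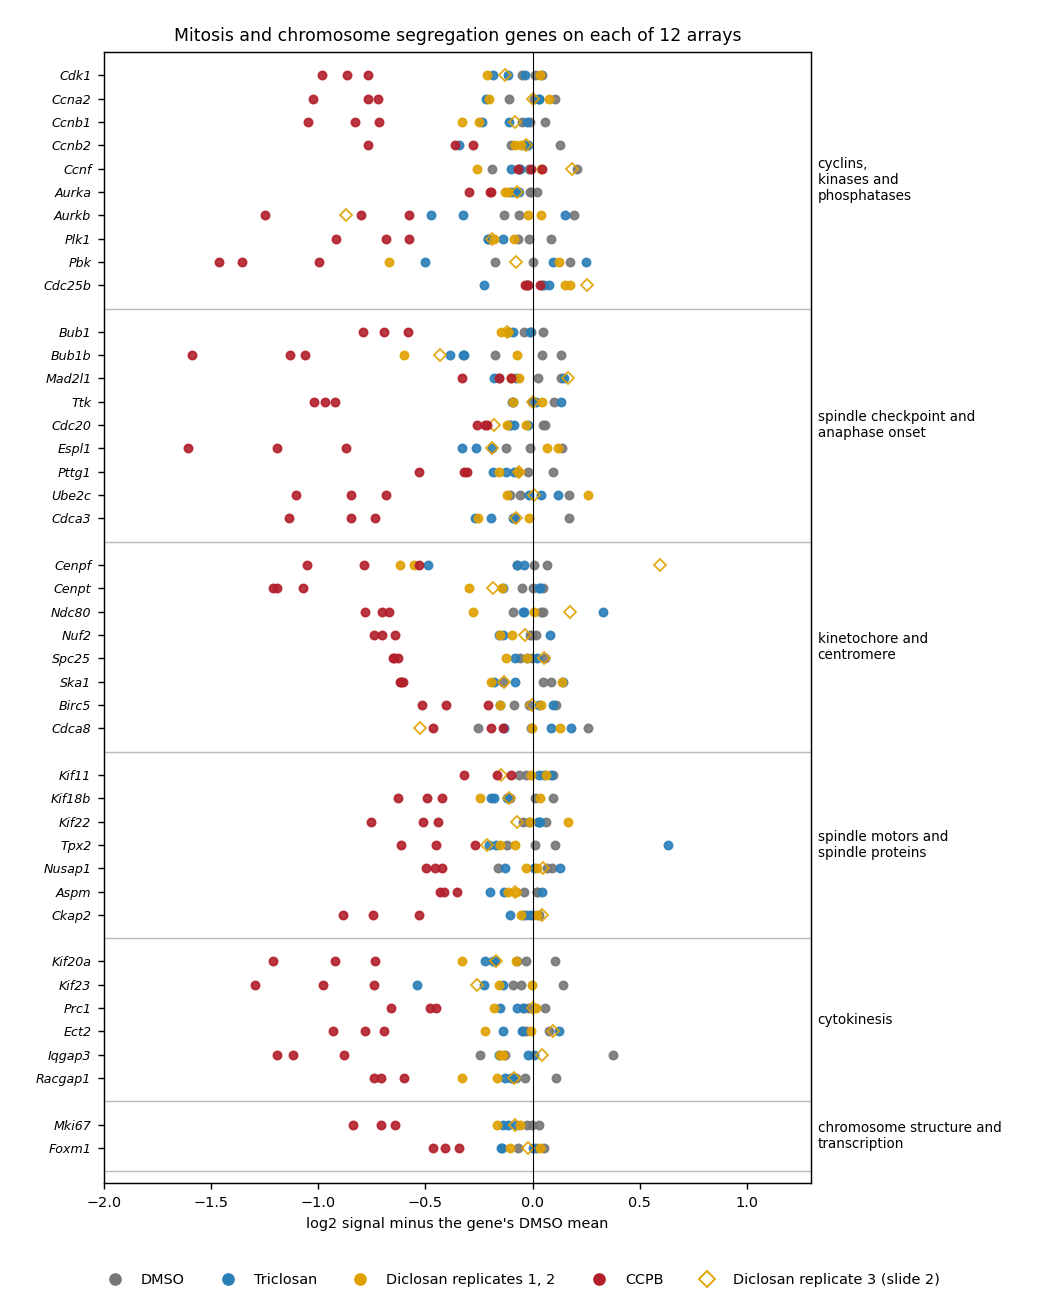
Level of each of the 42 measured genes on each of the 12 arrays, as the log2 signal minus the mean of the gene's 3 DMSO arrays, grouped by role. The open diamonds are diclosan replicate 3, on the slide of CCPB. All 3 CCPB points lie left of the other 9 in 34 of the 42 genes.

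**Figure D3:**
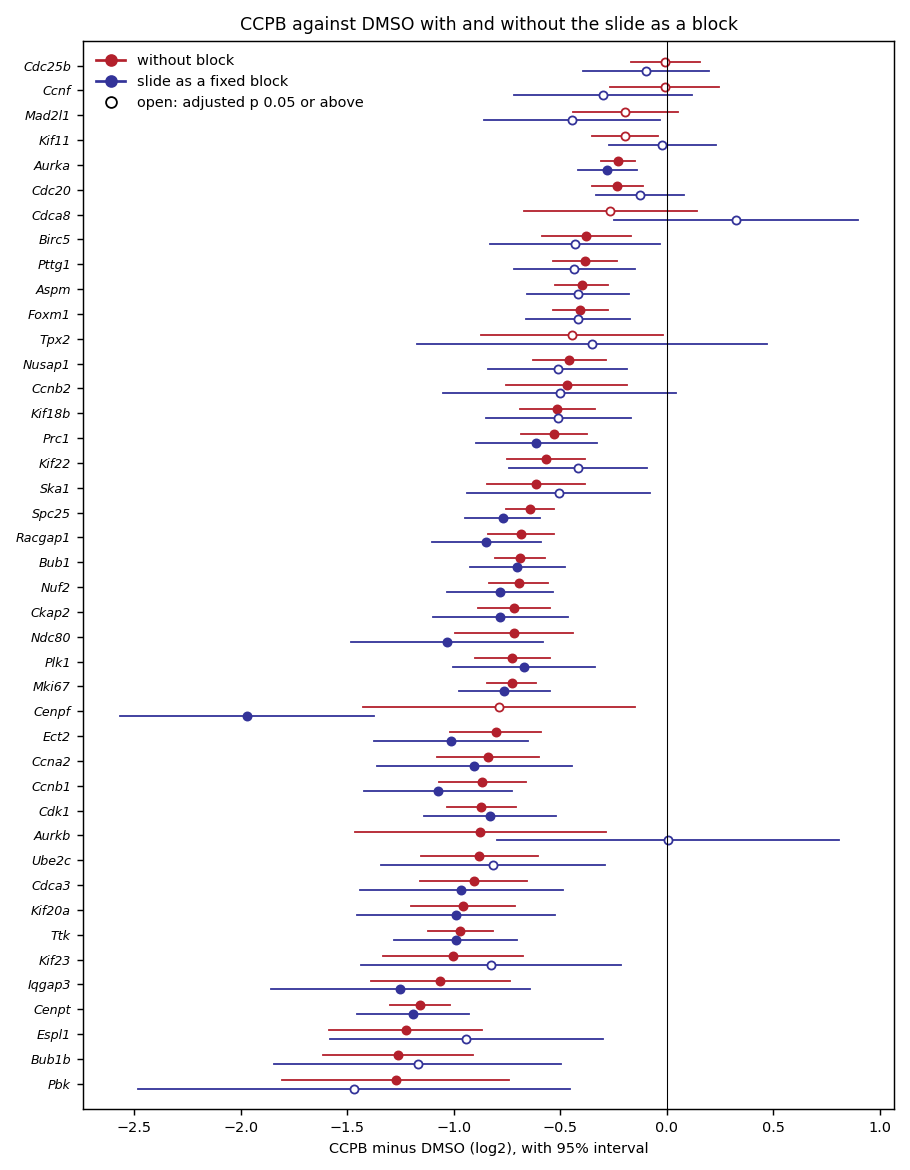
Difference of CCPB from DMSO (log2) with its 95% interval for the 42 measured genes, without a block (red) and with the slide as a fixed block (blue). Filled points have an adjusted p under 0.05, which holds for 35 genes without the block and 20 with it.

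Among the cyclins, kinases and phosphatases, 8 of the 10 measured genes fell with CCPB (median difference -0.78), and 5 did so with the slide block. Cdk1, the kinase that drives entry into mitosis, was at 1.15, 1.12 and 1.06 on the DMSO arrays, 0.93, 1.00 and 1.08 with triclosan, 1.15, 0.90 and 0.98 with diclosan and 0.34, 0.13 and 0.25 with CCPB. The CCPB values lay below the other 9. Its difference between CCPB and DMSO was -0.87 (95% interval -1.03 to -0.71, limma adjusted p = 5.82e-05), a 1.83-fold lower level, and -0.83 with the slide block (-1.14 to -0.52, adjusted p = 0.0161).

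The cyclins that bind Cdk1 were likewise lowest with CCPB. Ccnb1, a B-type cyclin, stood at -1.55, -1.62 and -1.66 with DMSO, -1.85, -1.72 and -1.63 with triclosan, -1.86, -1.94 and -1.69 with diclosan and -2.44, -2.66 and -2.33 with CCPB. All 3 CCPB arrays were below the rest, and the diclosan arrays were below the DMSO arrays. The fall was -0.87 (adjusted p = 0.000227), and -1.07 with the block (adjusted p = 0.00909). Ccna2, the A-type cyclin of S phase and early mitosis, stood at -0.81, -0.91 and -1.03 with DMSO, -1.13, -0.89 and -0.89 with triclosan, -0.84, -1.12 and -0.92 with diclosan and -1.69, -1.94 and -1.64 with CCPB. Again the CCPB arrays did not overlap the others. Ccna2 fell by 0.84 (adjusted p = 0.000593), and by 0.90 with the block (adjusted p = 0.0479).

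Plk1, a kinase of spindle assembly and mitotic exit, read -0.83, -0.93 and -0.99 on the DMSO arrays, -1.13, -1.06 and -1.13 with triclosan, -1.00, -1.10 and -1.11 with diclosan and -1.49, -1.83 and -1.60 with CCPB. Every exposed array lay below the DMSO arrays, and the CCPB arrays were lowest. The difference of CCPB from DMSO was -0.72 (adjusted p = 0.000259), and -0.67 with the block (adjusted p = 0.0463). Aurka, the kinase of centrosome maturation, had a smaller difference than the other named kinases, at 0.24, 0.23 and 0.27 with DMSO, 0.17, 0.14 and 0.18 with triclosan, 0.13, 0.12 and 0.17 with diclosan and 0.05, -0.05 and 0.05 with CCPB. The CCPB arrays were below the rest by a small margin, and the fall was -0.23 (adjusted p = 0.00174), or -0.28 with the block (adjusted p = 0.0469).

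Of the other members with this role, Ccnb2, Aurkb and Pbk fell without the block and did not pass with it. Aurkb, the kinase of the chromosomal passenger complex, was chosen for mention after its values were seen. It was well above background on 2 of the 3 CCPB arrays. Its value on diclosan replicate 3 was -4.54, within the CCPB range of -4.91 to -4.24 and below diclosan replicates 1 and 2 at -3.62 and -3.69. Its difference from DMSO went from -0.88 (adjusted p = 0.0341) to 0.0052 (adjusted p = 0.996) with the block. Pbk, a mitotic kinase, was not well above background on any CCPB array, and its level in DMSO was at least 1.73-fold higher (adjusted p = 0.00458, and 0.121 with the block). Such a bound sets the DMSO mean against the CCPB arrays raised to the lowest signal well above background on each. The adjusted p beside a bound, here and for Bub1b below, is from the limma fit of the values as measured and does not test the bound. Ccnf and Cdc25b did not pass, with differences of -0.01 (-0.27 to 0.25) and -0.0063 (-0.17 to 0.15).

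The spindle checkpoint and anaphase genes fell in 8 of 9 cases (median -0.88), and 3 did so with the block. Ttk, the kinase that starts checkpoint signalling at kinetochores, was at -1.84, -1.93 and -1.74 with DMSO, -1.93, -1.82 and -1.70 with triclosan, -1.79, -1.93 and -1.84 with diclosan and -2.76, -2.80 and -2.85 with CCPB. The triclosan and diclosan arrays overlapped DMSO, and the CCPB arrays were all below. Its difference was -0.97 (-1.12 to -0.82, adjusted p = 2.43e-05), a 1.96-fold lower level, and -0.99 with the block (-1.28 to -0.70, adjusted p = 0.00742).

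Bub1, another checkpoint kinase, was at -0.61, -0.64 and -0.56 with DMSO, -0.69, -0.61 and -0.71 with triclosan, -0.75, -0.71 and -0.72 with diclosan and -1.29, -1.39 and -1.18 with CCPB. The 3 diclosan arrays were all below DMSO by a little, and the CCPB arrays were far below both. The fall was -0.69 (adjusted p = 3.7e-05) and -0.70 with the block (adjusted p = 0.00865). Cdca3, a trigger of mitotic entry that promotes the degradation of Wee1, was at -0.41, -0.66 and -0.67 with DMSO, -0.85, -0.77 and -0.67 with triclosan, -0.60, -0.84 and -0.66 with diclosan and -1.32, -1.72 and -1.43 with CCPB. The CCPB values did not overlap the others, with a fall of -0.91 (adjusted p = 0.000495) and -0.96 with the block (adjusted p = 0.0457).

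Espl1, separase, the protease that opens cohesin, was at -2.21, -2.06 and -2.32 with DMSO, -2.53, -2.39 and -2.46 with triclosan, -2.13, -2.08 and -2.39 with diclosan and -3.07, -3.81 and -3.39 with CCPB. The CCPB arrays were below the rest and spread over a wider range than in the other groups. Its fall of -1.22 (adjusted p = 0.000686), 2.34-fold, became -0.94 with the block and no longer passed (adjusted p = 0.117). Ube2c, the ubiquitin-conjugating enzyme of the anaphase-promoting complex, was at -1.90, -2.17 and -2.12 with DMSO, -2.08, -1.94 and -2.03 with triclosan, -1.81, -2.18 and -2.06 with diclosan and -2.91, -3.17 and -2.75 with CCPB. Here too the CCPB arrays lay below the other 9, with -0.88 (adjusted p = 0.000993) without and -0.82 (adjusted p = 0.102) with the block.

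The remaining members with this role were Bub1b, Mad2l1, Cdc20 and Pttg1. Bub1b, the checkpoint protein BubR1, was not well above background on any CCPB array, and DMSO was at least 2.05-fold higher (adjusted p = 0.000534, and 0.0732 with the block). Pttg1, securin, and Cdc20, the activator of the anaphase-promoting complex, fell by 0.39 and 0.23 and did not pass with the block (adjusted p = 0.105 and 0.522). Mad2l1, the checkpoint inhibitor of Cdc20, did not pass, at -0.19 (-0.44 to 0.05, adjusted p = 0.21). These members were named after their values were seen.

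At the kinetochore and centromere 6 of 8 genes fell (median -0.67), and 5 passed with the block. Cenpt, a centromere protein that recruits the Ndc80 complex, had the smallest p of all 42 genes, with -1.95, -1.90 and -1.86 on the DMSO arrays, -1.87, -2.04 and -1.87 with triclosan, -2.05, -2.20 and -2.09 with diclosan and -3.12, -2.97 and -3.09 with CCPB. The diclosan arrays lay slightly below DMSO, and the CCPB arrays were below all others by more than the whole range of those. The difference from DMSO was -1.16 (-1.30 to -1.02, adjusted p = 1.26e-05), a 2.23-fold lower level, and -1.19 with the block (-1.46 to -0.93, adjusted p = 0.00493).

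The 3 measured subunits of the Ndc80 complex, which grips the microtubule, all fell with and without the block. Spc25 was at 0.15, 0.04 and 0.09 with DMSO, 0.01, 0.07 and 0.11 with triclosan, 0.07, -0.03 and 0.15 with diclosan and -0.56, -0.56 and -0.54 with CCPB. Nuf2 was at -2.10, -2.07 and -2.09 with DMSO, -2.22, -2.24 and -2.00 with triclosan, -2.18, -2.24 and -2.12 with diclosan and -2.79, -2.82 and -2.73 with CCPB. Ndc80 was at -1.34, -1.48 and -1.34 with DMSO, -1.43, -1.06 and -1.43 with triclosan, -1.38, -1.66 and -1.21 with diclosan and -2.06, -2.09 and -2.17 with CCPB. In each subunit the CCPB arrays sat close together and below the other 9. The falls were -0.64 for Spc25 (adjusted p = 4e-05), -0.70 for Nuf2 (adjusted p = 8.19e-05) and -0.72 for Ndc80 (adjusted p = 0.003). With the block they were -0.77, -0.78 and -1.03 (adjusted p = 0.00493, 0.00865 and 0.0305).

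Cenpf, a large kinetochore protein of late G2 and mitosis, was dim, at -4.12, -4.06 and -4.20 with DMSO, -4.20, -4.62 and -4.17 with triclosan, -4.75, -4.68 and -3.53 with diclosan and -4.66, -5.18 and -4.91 with CCPB, and only 1 of the CCPB arrays was well above background. Its highest value was that of diclosan replicate 3, and 1 CCPB array lay above diclosan replicates 1 and 2. The difference of CCPB from DMSO was -0.79 and did not pass (adjusted p = 0.0643), whereas with the block it was -1.97 and passed (adjusted p = 0.00785). That value follows from the single diclosan array on slide 2. Of the others, Ska1 and Birc5 (survivin) fell by 0.61 and 0.38 without the block only, and Cdca8 (borealin) did not pass, at -0.26 and, with the block, 0.32. They were named after their values were seen.

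Spindle motors and spindle proteins fell in 5 of 7 cases (median -0.46), and only Ckap2 passed with the block. Ckap2, a spindle microtubule protein, was at -1.60, -1.56 and -1.54 with DMSO, -1.67, -1.61 and -1.58 with triclosan, -1.54, -1.62 and -1.52 with diclosan and -2.09, -2.45 and -2.31 with CCPB. The first 3 groups overlapped and CCPB lay below them, by -0.72 from DMSO (adjusted p = 0.000207) and -0.78 with the block (adjusted p = 0.0228). Kif22, the chromokinesin that pushes chromosome arms, was at -1.77, -1.80 and -1.69 with DMSO, -1.73, -1.72 and -1.72 with triclosan, -1.59, -1.76 and -1.83 with diclosan and -2.19, -2.51 and -2.26 with CCPB. Its fall of -0.57 (adjusted p = 0.00118) became -0.42 with the block (adjusted p = 0.162). Nusap1, which bundles spindle microtubules, was at -1.43, -1.45 and -1.68 with DMSO, -1.65, -1.51 and -1.39 with triclosan, -1.50, -1.55 and -1.47 with diclosan and -1.94, -2.01 and -1.97 with CCPB. In both genes the CCPB arrays lay below the other 9. Nusap1 fell by 0.46 (adjusted p = 0.00261), and by 0.51 with the block, where it did not pass (adjusted p = 0.0971). Aspm, a protein of the spindle poles, and the motor Kif18b fell by 0.40 and 0.51 without the block only. The motor Kif11 and the spindle assembly factor Tpx2, at -0.20 (-0.35 to -0.04) and -0.44 (-0.87 to -0.02), did not pass, and Tpx2 had 1 triclosan array at -1.78 against a range of -3.02 to -2.30 on the other 11. These last members were named after their values were seen.

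All 6 measured cytokinesis genes fell (median -0.88), and 5 passed with the block. Racgap1 and Ect2 form the switch that activates RhoA at the cell equator. Racgap1 was at -1.17, -1.32 and -1.36 with DMSO, -1.37, -1.41 and -1.38 with triclosan, -1.45, -1.61 and -1.37 with diclosan and -2.03, -1.99 and -1.88 with CCPB. Ect2 was at -1.53, -1.52 and -1.41 with DMSO, -1.63, -1.37 and -1.54 with triclosan, -1.50, -1.71 and -1.39 with diclosan and -2.27, -2.42 and -2.18 with CCPB. For both, the CCPB arrays were below all others, and the triclosan and diclosan arrays of Racgap1 were also below DMSO. Racgap1 fell by 0.68 (adjusted p = 0.00017) and by 0.85 with the block (adjusted p = 0.00771). Ect2 fell by 0.80 (adjusted p = 0.000413) and by 1.01 with the block (adjusted p = 0.0142).

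Kif20a, the motor that carries the passenger complex to the midzone, was at -1.01, -1.15 and -1.19 with DMSO, -1.30, -1.34 and -1.29 with triclosan, -1.19, -1.44 and -1.28 with diclosan and -2.04, -2.32 and -1.85 with CCPB. All triclosan and diclosan arrays lay below DMSO, and CCPB lay lower still. Its fall was -0.96 (adjusted p = 0.000319), 1.94-fold, and -0.99 with the block (adjusted p = 0.0379). Prc1, which bundles the microtubules of the midzone, was at -0.32, -0.39 and -0.41 with DMSO, -0.53, -0.42 and -0.45 with triclosan, -0.36, -0.55 and -0.37 with diclosan and -0.82, -1.03 and -0.85 with CCPB. Prc1 fell by 0.53 (adjusted p = 0.000668), and by 0.61 with the block (adjusted p = 0.0361). Iqgap3, a scaffold protein, was at -3.65, -3.15 and -3.77 with DMSO, -3.51, -3.54 and -3.68 with triclosan, -3.67, -3.66 and -3.48 with diclosan and -4.64, -4.71 and -4.40 with CCPB. One DMSO array of Iqgap3 stood above the other two, and the CCPB arrays were below all 9 others. The fall of Iqgap3 was -1.06 (adjusted p = 0.000905), or -1.25 with the block (adjusted p = 0.0432). Kif23, the midzone motor that partners Racgap1, fell by 1.00 without the block only (adjusted p = 0.145 with it), and was named after its values were seen.

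Of the genes of chromosome structure and transcription, Mki67 and Foxm1 were measured and both fell. Mki67, which codes for the proliferation marker Ki-67 that coats mitotic chromosomes, was at 0.38, 0.32 and 0.35 with DMSO, 0.21, 0.27 and 0.23 with triclosan, 0.29, 0.18 and 0.27 with diclosan and -0.29, -0.49 and -0.36 with CCPB. All triclosan and diclosan arrays were below DMSO by up to a small margin, and the CCPB arrays fell below all of them. The difference was -0.73 (-0.84 to -0.61, adjusted p = 2.43e-05), a 1.66-fold lower level, and -0.76 with the block (-0.97 to -0.55, adjusted p = 0.00626). Foxm1, a transcription factor of late cell cycle genes, was at -0.83, -0.96 and -0.87 with DMSO, -0.88, -1.03 and -1.03 with triclosan, -0.85, -0.99 and -0.91 with diclosan and -1.35, -1.23 and -1.29 with CCPB. Its CCPB arrays were below the rest, and its fall of -0.41 (adjusted p = 0.00106) was -0.42 with the block and did not pass there (adjusted p = 0.0758).

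Mki67 had 4 kept probes, and each was lower with CCPB than with DMSO, by -0.73, -0.82, -0.55 and -0.97 in order of brightness (adjusted p at most 0.0024 over all probes). Both probes of Ccna2, Ube2c, Ckap2, Prc1 and Racgap1 fell as well. The second Ccna2 probe was dim, with a mean level of -5.29, and was well above background on only 5 of the 12 arrays. Its fall is therefore not read as support for the first probe. For Ccnb2 the second probe, at -0.20, missed the threshold (adjusted p = 0.223), and neither probe of Mad2l1 passed. Thus between CCPB and DMSO, among the genes with several kept probes, the call differed between probes in Ccnb2 alone. By limma over all probes, the third Mki67 probe did not pass between CCPB and triclosan (adjusted p = 0.093). The second Ccna2 probe did not pass between CCPB and diclosan (adjusted p = 0.0918).

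Against triclosan, whose arrays were all on slide 1, 33 of the 42 genes fell with CCPB, where 9.6% of all genes fell and 20.5% changed. With the slide block 13 fell, where 0.761% of all genes fell and 1.4% changed. The median was -0.60. Cenpt differed by -1.13 (-1.27 to -0.99, adjusted p = 3.25e-05) and Ttk by -0.99 (-1.14 to -0.84, adjusted p = 8.76e-05), and both passed with the block (adjusted p = 0.0119 and 0.0212). Plk1, at -0.54 (adjusted p = 0.00226), missed the threshold with the block (adjusted p = 0.164).

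Against diclosan, which keeps the hydroxyl group that CCPB lacks, 32 of the 42 genes fell with CCPB, where 8.12% of all genes fell and 14.3% changed. With the slide block 24 fell, where 2.49% of all genes fell and 4.9% changed. The median was -0.59. Diclosan replicate 3 and CCPB share slide 2, so with the block each difference is the CCPB mean minus that 1 diclosan array. The 24 falls therefore rest on 1 diclosan array, with a spread shared by all groups. Cenpt differed by -0.95 (-1.09 to -0.81, adjusted p = 7.02e-05), Mki67 by -0.63 (-0.74 to -0.51, adjusted p = 0.000106) and Cdk1 by -0.77 (-0.93 to -0.61, adjusted p = 0.000196). All of these passed with the block (adjusted p = 0.00225, 0.0033 and 0.00706). Within slide 2 alone, with the 1 diclosan array assumed to vary like the CCPB arrays, the median was -0.58 and 41 of the 42 genes were below 0. The differences in that fit equal those with the block, and their spread comes from the CCPB arrays alone. None of the 42 passed there by limma (smallest adjusted p = 0.0943), nor did any of all genes (0%), and an unadjusted p under 0.05 was found for 33 of the 42 and 17% of all genes.

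With triclosan the mitotic genes differed little from DMSO. Of the 42, 0 passed by limma, where 0.0639% of all genes did, and 2 had an unadjusted p under 0.05 (11.6% of all genes). The median was -0.07, and 34 of the 42 genes were below 0, against 52.8% of all genes. All 3 triclosan arrays lay below all 3 DMSO arrays for 12 of the 42 (10.4% of all genes). The 95% interval stayed within 1.5-fold in either direction for 36 of the 42. Limma with the slide block also called 0 of the 42 (0.221% of all genes), 2 of them at an unadjusted p under 0.05 (14.1% of all genes). Both sets of arrays were on slide 1, and a fit of that slide alone also gave 0 of the 42, with 7 at an unadjusted p under 0.05 (13.1% of all genes) and 0.00491% of all genes past the test. In this comparison the difference farthest below 0 was that of Bub1b, at -0.34 (-0.69 to 0.009). Bub1b was well above background on 2 of the 3 triclosan arrays. The difference farthest above 0 was that of Tpx2, at 0.09 (-0.34 to 0.51). For Cdk1 the difference was -0.11 (-0.27 to 0.05) and for Mki67 -0.11 (-0.22 to 0.0039).

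Diclosan also gave 0 of 42 past the test, where 0.00982% of all genes passed, and 0 with the slide block (0.0147% of all genes), where 5 had an unadjusted p under 0.05 (9.83% of all genes). Without the block 7 had an unadjusted p under 0.05 (10.6% of all genes). The median was -0.09, and 37 of the 42 were below 0, against 48.3% of all genes. All 3 diclosan arrays lay below all 3 DMSO arrays for 10 of the 42 (7.52% of all genes). The interval stayed within 1.5-fold for 38 of the 42. Cenpt came nearest to the threshold, at -0.21 (-0.35 to -0.07, adjusted p = 0.316). The difference farthest above 0 was that of Cdc25b, a phosphatase that activates Cdk1, at 0.19 (0.03 to 0.36, adjusted p = 0.394). So most of these genes lay slightly below DMSO with both compounds, by amounts that did not pass gene by gene, and both comparisons used the same DMSO arrays.

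Triclosan and diclosan, which differ by 1 chlorine atom, were compared directly at the same dose and time. None of the 42 genes passed (2 at an unadjusted p under 0.05, against 6.8% of all genes), nor did any of all genes (0%). With the slide block limma again called 0 (0.00491% of all genes), and 3 had an unadjusted p under 0.05 (7.52% of all genes). The median difference was 0.0004, with 21 genes on either side of 0, and the interval stayed within 1.5-fold for 37 of the 42. For Cdk1 it was -0.01 (-0.17 to 0.15), for Plk1 -0.03 (-0.21 to 0.14) and for Espl1, the farthest below 0, -0.26 (-0.62 to 0.10). These intervals do not show that the compounds act alike.

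**Figure D4:**
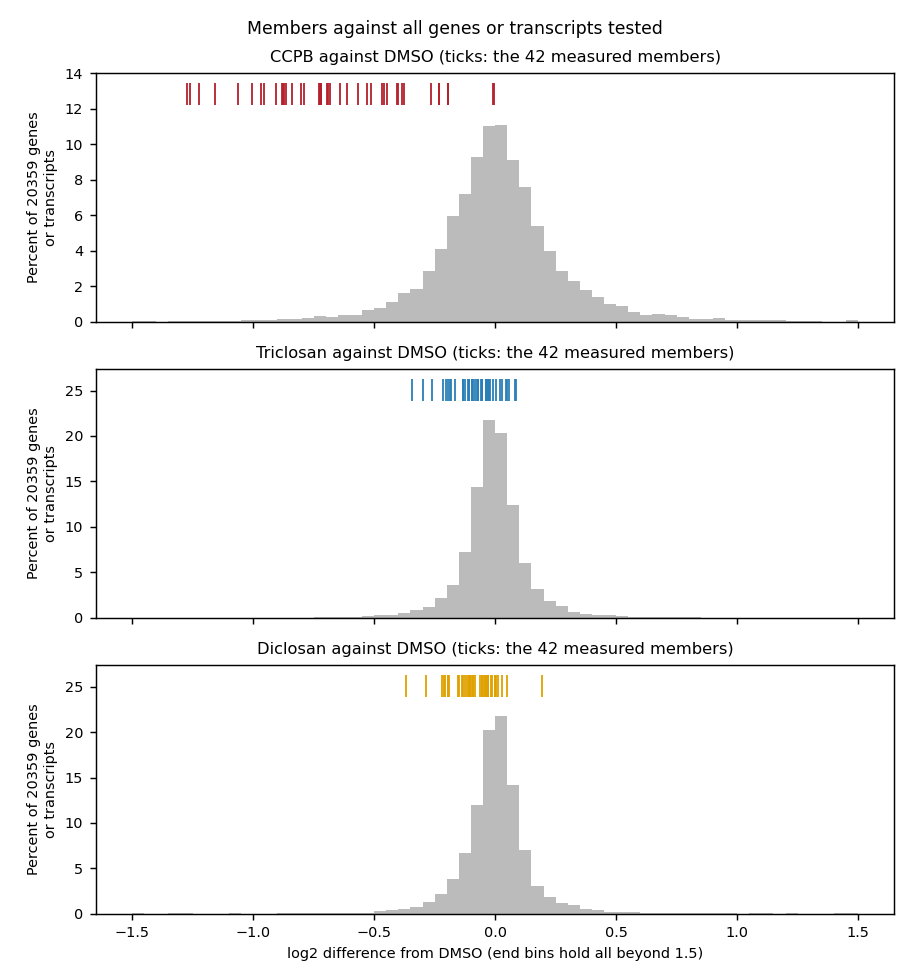
Histograms of the log2 difference from DMSO over 20359 genes or transcripts for CCPB (top), triclosan (middle) and diclosan (bottom), with a tick for each of the 42 measured mitotic genes. The CCPB ticks lie between -1.27 and -0.0063, and those of triclosan and diclosan lie close to 0.

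Other genes of the cell cycle were read from lists that did not include the 42. Of 71 further mitosis genes 47 were measured, and with CCPB 31 fell and 1 rose against DMSO (median -0.37), with 14 falls and no rise under the slide block. Of all genes, 14.2% fell and 28.3% changed without the block, and 1.79% fell and 3.42% changed with it. Those that fell under both included Cdca5 (sororin, which protects cohesion), at -0.86, Hjurp, the chaperone of the centromeric histone, at -0.90, and Spag5 (astrin), at -0.87. Wee1, the kinase that holds Cdk1 inactive, was the 1 that rose, at 0.24, and it was -0.02 with the block. The anaphase-promoting complex and cohesin, whose subunits many non-dividing cells also make, had 3 of 20 measured genes lower, 1 higher and a median of -0.05, where 14.2% of all genes fell and 28.3% changed, so these shares were close to or below those of all genes. With the block limma called 0 of 20 (0 at an unadjusted p under 0.05, against 18% of all genes).

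Of the transcription regulators of the cell cycle, a list of E2F, Rb, MuvB and NF-Y genes and their partners, 15 of 21 were measured. Among them 5 fell and 2 rose, again beside 14.2% of all genes that fell and 28.3% that changed. E2f1 fell by 0.80 (adjusted p = 4.89e-05) and was the 1 gene of this list to pass with the block, at -0.69 (adjusted p = 0.0163). With the block 3.42% of all genes passed. Mybl2, the B-Myb partner of MuvB, fell by 0.37 (adjusted p = 0.0157) and did not pass with the block (adjusted p = 0.667). Of the G1 cyclins, kinases and inhibitors, 15 of 16 were measured and 8 fell (median -0.26), beside the same 14.2% of all genes. The E-type cyclins Ccne1 and Ccne2, which act at the entry into S phase, fell by 0.61 and 0.78, and they were the 2 of this list that passed with the block (adjusted p = 0.00742 and 0.00726). Of all genes the same 3.42% passed there. Cdkn1a, the p21 inhibitor that p53 induces, was at 0.07 relative to DMSO and missed the threshold (adjusted p = 0.211). With triclosan and with diclosan none of the genes on these 4 lists passed against DMSO, except the inhibitor Cdkn2b, which passed with triclosan in the slide block fit only, at -0.29 (adjusted p = 0.0437).

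**Figure D5:**
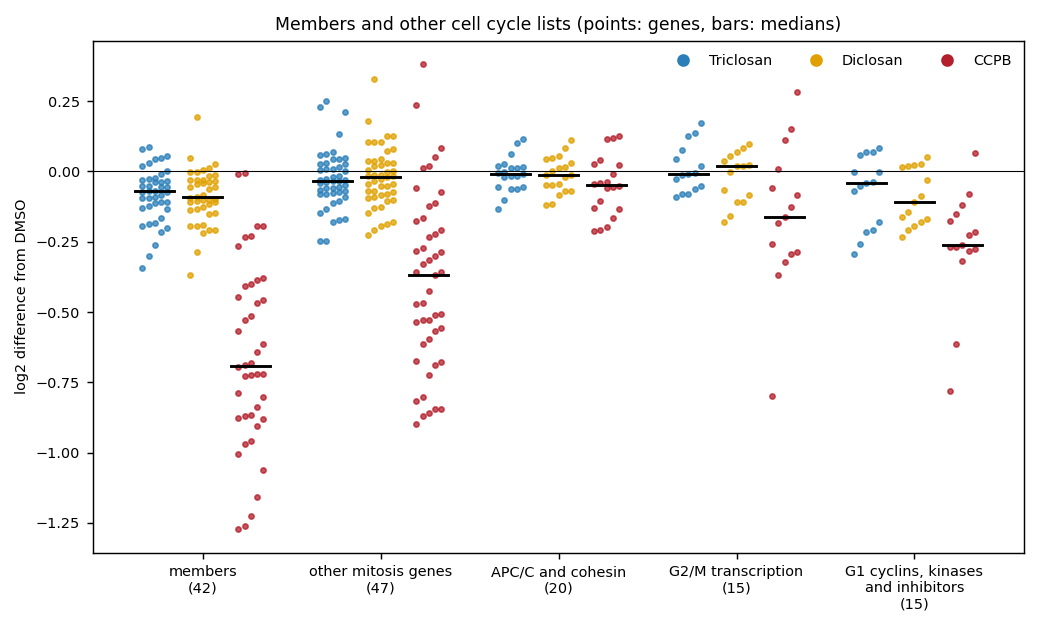
Difference from DMSO (log2) of each measured gene in the 42 mitotic genes and in 4 other cell cycle lists, for triclosan, diclosan and CCPB, with the number of genes below each name and the median as a bar. With CCPB the medians were -0.69 for the 42 genes, -0.37 for other mitosis genes and -0.05 for the anaphase-promoting complex and cohesin. For the transcription regulators of the cell cycle (drawn as G2/M transcription) the median was -0.16, and for the G1 list -0.26.

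Marker genes of liver cell types were read beside the mitotic genes. All 8 hepatocyte markers were well above background in each group, and their summed linear level, in multiples of the array's 75th percentile, was 2060.3 to 2161 with DMSO and 2098 to 2146 with CCPB. Of the macrophage markers 4 of 10 were above background, without Cd163, Marco, C1qa, C1qc, Csf1r and Ptprc, and the sums were 0.718 to 0.996 with DMSO, 0.771 to 1.03 with triclosan, 1.04 to 1.19 with diclosan and 0.928 to 1.05 with CCPB. The diclosan sums lay above those of DMSO without overlap. Stellate cell and fibroblast markers gave 5 of 9 (without Dcn, Lum, Pdgfrb and Lrat) and sums of 1.83 to 2.49 with DMSO, 1.38 to 2.33 with triclosan, 1.77 to 2.17 with diclosan and 1.91 to 1.98 with CCPB.

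The endothelial markers gave 3 of 7 above background with DMSO and 2 of 7 with each of the 3 compounds (without Pecam1, Stab2, Lyve1 and Tek), with sums of 7.98 to 8.48 with DMSO and 9.32 to 9.66 with CCPB. Cholangiocyte markers gave 3 of 6 with DMSO and 2 of 6 with each compound (without Krt19, Spp1 and Cftr), with sums of 2.77 to 2.96 with DMSO and 3.50 to 3.56 with CCPB. The sums of these 2 lists were thus higher with CCPB and did not overlap DMSO, although fewer of their markers were above background than with DMSO. Vwf, Epcam and Sox9 rose without the slide block and none of them passed with it (limma adjusted p = 0.908, 0.382 and 0.502). The measured markers also included Kdr, Cdh5 and Krt7, whose directions are not given here, so Vwf, Epcam and Sox9 do not stand for their lists. A sum does not give the direction of each marker. The triclosan sums were 7.41 to 7.99 for endothelial and 2.78 to 3.24 for cholangiocyte markers, and the diclosan sums 7.90 to 9.56 and 2.79 to 3.05. The part of these cell types in the mitotic gene result was not tested.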

How the data were processed

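RNA of 12 samples was hybridised to one-colour rat arrays. Spot intensity, per the file headers, came from Agilent Feature Extraction 10.7.1.1, background-subtracted, on a linear scale and unscaled between arrays. A deposited matrix with a linear signal for every probe served as an alternative, and its log2 values correlated with the scanner values at 0.9999 or more on each array. The deposited intensity was turned into log2 values, spots of a probe were averaged, and the 75th percentile of each array was subtracted. The filter kept 24254 of 45598 probes, those well above background on every array of some group. Names came from RefSeq transcript accessions. For the 20359 genes or transcripts limma 3.58.1 in R 4.3.3 fitted all 12 arrays by group, two-sided, with Benjamini-Hochberg adjustment over all of them and intervals of 95%. The fit was tested on simulated arrays in which chosen genes were changed by known amounts.

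The members and lists were chosen with earlier results of these data known. Values on every array are given for members past the test in a comparison with the slide block, for the member of each role with the smallest p against DMSO, and for Mki67, Cdk1, Ccnb1, Top2a, Plk1 and Foxm1 (25 in all, Top2a having no matched probe). The slide comes from the file headers. Same-numbered samples did not deviate together (correlations from -0.165 to 0.117), so replicate numbers were not used as pairs. Alternatives were the slide and replicate blocks, single slides, normexp (offset 50, on the median spot signal, chosen after seeing the files), median and quantile scaling, dim-probe filters, the mean of a gene's probes, the deposited matrix, fits of the compared groups alone and leaving out each array.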

Additional observations from a re-analysis of the deposited data

How the results depend on the processing

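Settings changed the number of mitotic genes that fell with CCPB more than their direction. Against DMSO, 35 passed without a block, 20 with the slide block and 8 with the replicate block and the slide block together. Against triclosan the counts were 33, 13 and 0, and against diclosan 32, 24 and 13, with 0 in slide 2 alone, where 1 diclosan array stands against 3. The replicate block alone left 34, 32 and 32. Since replicate numbers did not pair the samples, that block is only a further model. Leaving out 1 array gave 32 to 37 against DMSO (the 37 without diclosan replicate 3, an alternative added after the data were seen), 29 to 36 against triclosan and 28 to 32 against diclosan, and 0 in the comparisons without CCPB. The other settings gave 31 to 36 against DMSO. Between CCPB and DMSO 37 genes lay below 0 in every setting that measured them (18 or 19), and 7 passed in all 19 (Ccnb1, Ttk, Cenpt, Nuf2, Spc25, Racgap1 and Mki67).

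The median against DMSO ran from -0.73 to -0.42, the last with normexp, and against triclosan and diclosan normexp gave -0.34 and -0.33. Among genes that passed without a block, directions reversed for Aurkb against DMSO, at 0.0052 with the slide block and 0.31 with both blocks, and for Kif11 against triclosan, at 0.0022 with both blocks; the cause was not tested. Against DMSO, 4 genes that did not pass without a block also lay above 0 in some settings, at up to 0.33 for Cdca8, 0.09 for Ccnf, 0.06 for Kif11 and 0.02 for Cdc25b. Over all genes 5760 passed between CCPB and DMSO without a block, 697 with the slide block, 300 with both blocks, 3326 with median centring, 2805 without a filter on dim probes and 3663 without CCPB replicate 3. The slide of CCPB cannot be told apart from its treatment except through diclosan replicate 3.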
